A study of Mus musculus with 4 samples.

Results

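Rab GTPases are the small switch proteins of membrane traffic, and their genes were followed in cultured ovarian granulosa cells (GCs) of the mouse treated with HDACi 4b. Members were all genes whose name is Rab followed by a number and at most a letter and a digit, which gave 58 of the 25239 listed genes. By their known site of action 22 were placed as secretory, 25 as endosomal, 6 as neuronal and 5 as other. These roles were assigned with earlier results of these data known, so contrasts between role groups are descriptions only.

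A Rab protein is carried to a membrane by a lipid tail, is loaded with GTP by an exchange factor, and then binds effectors that move, tether or fuse the vesicle until a GTPase-activating protein switches it off. Each Rab marks its own compartment, and together they cover the routes of the cell: from the endoplasmic reticulum (ER) to the Golgi, from the Golgi to the surface, and through early, recycling and late endosomes. GCs secrete hormones and growth factors to the oocyte and the surrounding tissue, and they take up receptors and lipoproteins, so both directions of traffic are part of their work.

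Total RNA was sequenced in 4 libraries, 2 labelled HDACi 4b and 2 labelled con (control). Both groups were wild-type GCs in culture, from C57BL/6 females at postnatal day 24, and differed in treatment with HDACi 4b, a synthetic blocker of HDAC1 and HDAC3, enzymes that take acetyl groups off histones. Dose and duration in these libraries are not given in the labels, and no library separates HDAC3 from HDAC1. The comparison asked which transcripts respond to the inhibitor, with amphiregulin (Areg) as the study's own target.

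Levels are FPKM, reads scaled by gene length and library total, so levels of different genes can be set side by side. The totals behind the columns were 15951875 to 17665107 reads. Log2 values correlated across genes at 0.993 between the HDACi 4b libraries, at 0.989 between the con libraries and at 0.883 to 0.896 between groups. Areg, the check of the treatment, stood at 15.4 and 11.3 FPKM in HDACi 4b libraries against 0 and 0.0466 FPKM in con libraries. Foxl2 and Fshr, which define GCs, were present in all 4 libraries, although Foxl2 fell (-1.33, adjusted p = 0.00115). The 13 GC markers summed to 1840 and 1820 FPKM in HDACi 4b libraries against 2150 and 1850 FPKM in con libraries. Of 12 tested GC markers 3 rose and 6 fell, and the sum hides opposite changes: Cyp11a1 had 1094 and 933.1 FPKM in HDACi 4b libraries against 260.1 and 128.9 FPKM in con libraries, and Inha had 438.0 and 582.7 FPKM in HDACi 4b libraries against 1219 and 1260 FPKM in con libraries. Oocyte markers summed to 4.00 and 5.75 FPKM in HDACi 4b libraries against 3.88 and 1.09 FPKM in con libraries. Smooth muscle markers summed to 26.2 and 45.6 FPKM in HDACi 4b libraries against 169 and 256 FPKM in con libraries, and leukocyte markers to 58.0 and 50.4 FPKM in HDACi 4b libraries against 71.4 and 112 FPKM in con libraries.

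Differences are HDACi 4b minus con on the log2(FPKM + 1) scale with the SE of a limma fit, and a gene was called at a Benjamini-Hochberg adjusted p under 0.05. With n = 2 libraries a group, an exact permutation test of a single gene cannot go below p = 0.333, so calls rest on the spread shared over all genes. Whether the 2 libraries of a group are separate cultures is not in the labels, and p-values then cover only library-to-library spread, which may be technical. In bulk RNA fewer cells of a type and less RNA per cell cannot be told apart.

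HDACi 4b-treated GCs had more transcript of several Rab genes of regulated secretion and synaptic vesicles (Rab26, Rab3a, Rab3b, Rab3d and Rab6b), of Rab20 of the endosome, and less of Rab11b and Rab23. Of the 58 Rab genes 42 reached a mean of 1 FPKM and were tested. Among them 18 rose (42.9%), 12 fell (28.6%) and 12 were not called, while 22.4% of all 12054 tested genes rose and 38.1% fell. Called in either direction were 71.4% of tested Rab genes, beside 60.5% of all tested genes. Changes of at least 2-fold (a difference of 1 or more) were 6 rises (14.3%) and 0 falls, where 7.54% of all tested genes rose and 6.7% fell by as much, 14.2% in all. The added 1 FPKM kept Rab40b (mean ratio 2.46) and Rab23 (con over HDACi 4b, 2.36) out of this count. Rab26 and Rab3b averaged 0.111 and 0.233 FPKM in con libraries, so they passed the filter only through the HDACi 4b libraries. The filter thus favoured their rise, also in the neuronal and exocytosis counts below. In the limma fit without a filter both were still called higher (adjusted p = 0.00203 and 0.00243). The 2 libraries of each group lay apart from the other group for 38 Rab genes (90.5%), beside 83.1% of all tested genes. The median difference was 0.12 for Rab genes and -0.15 over all tested genes.

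The falls were the less firm side of this count. Scaling the libraries to a common median ratio moved the median of all genes to -0.01, and 22 Rab genes then rose and 4 fell. In that scaling 3419 of all tested genes rose and 3397 fell, while 2700 rose and 4597 fell without it. Leaving out either HDACi 4b library left a single library in that group, and falls were then fewer among Rab genes and among all tested genes. Calls of 15 Rab genes were made in each alternative run on them, and these were the rises of Rab26, Rab6b, Rab3b, Rab3a, Rab3d, Rab20, Rab40b, Rab13, Rab29, Rab31, Rab11a, Rab9 and Rab10 and the falls of Rab11b and Rab23. No called Rab gene changed sign in any of them.

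By level, 4 Rab genes reached a mean of 100 FPKM, 23 lay between 10 and 100 FPKM, 15 between 1 and 10 FPKM and 16 under 1 FPKM. The 4 most abundant, Rab2a, Rab31, Rab5c and Rab7, made up 36.8% of the summed mean level of all Rab genes. The sum over the 58 genes was 1465 and 1452 FPKM in HDACi 4b libraries against 1268 and 1279 FPKM in con libraries, a ratio of 1.15 (1.27 under median-ratio scaling).

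**Figure D1:**
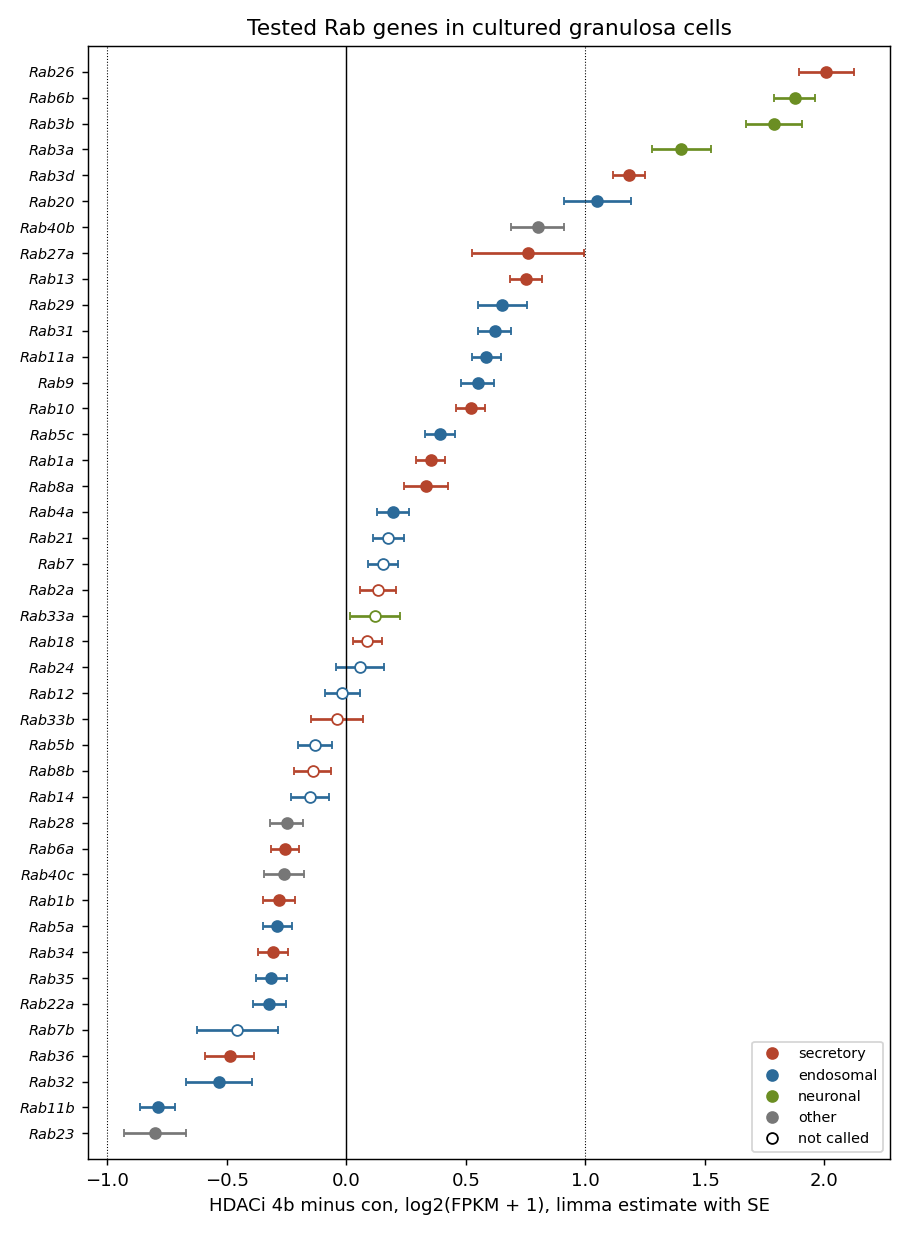
Difference of each of the 42 tested Rab genes, HDACi 4b minus con on the log2(FPKM + 1) scale (points, limma estimate; bars, SE), coloured by role, with open points for genes not called. Rab26, Rab6b, Rab3b, Rab3a, Rab3d and Rab20 lie to the right of 1, and no gene lies to the left of -1.

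Promoters are shown for the Rab3 genes, which rose together, for Rab6b, and for the Rab11 pair, which moved in opposite directions. Each run is the 250 bases before the first RefSeq start on GRCm38.p6, read 5′ to 3′ on the strand of the gene, with capitals for GGGCGG or its reverse complement, the GC box bound by factors of the SP1 family. They lie at chr8:70754453-70754702 on the plus strand for Rab3a, chr4:108878820-108879069 on the plus strand for Rab3b, chr9:21918184-21918433 on the minus strand for Rab3d, chr9:103111824-103112073 on the plus strand for Rab6b, chr9:64737757-64738006 on the minus strand for Rab11a and chr17:33760487-33760736 on the minus strand for Rab11b.
Rab3a: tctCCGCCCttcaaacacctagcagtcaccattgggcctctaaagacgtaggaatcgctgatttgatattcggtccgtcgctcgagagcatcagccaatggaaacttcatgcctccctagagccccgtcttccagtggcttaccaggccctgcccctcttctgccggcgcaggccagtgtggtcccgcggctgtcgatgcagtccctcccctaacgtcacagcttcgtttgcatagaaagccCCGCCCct
Rab3b: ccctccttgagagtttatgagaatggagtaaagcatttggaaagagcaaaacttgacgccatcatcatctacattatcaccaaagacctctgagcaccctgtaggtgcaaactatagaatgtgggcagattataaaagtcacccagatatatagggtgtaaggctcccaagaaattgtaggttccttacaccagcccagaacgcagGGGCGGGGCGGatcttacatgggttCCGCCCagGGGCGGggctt
Rab3d: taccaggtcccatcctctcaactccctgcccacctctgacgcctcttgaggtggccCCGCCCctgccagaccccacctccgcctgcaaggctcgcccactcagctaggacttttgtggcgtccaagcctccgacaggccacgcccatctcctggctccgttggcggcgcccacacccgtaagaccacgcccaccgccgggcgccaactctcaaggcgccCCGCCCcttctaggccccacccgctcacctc
Rab6b: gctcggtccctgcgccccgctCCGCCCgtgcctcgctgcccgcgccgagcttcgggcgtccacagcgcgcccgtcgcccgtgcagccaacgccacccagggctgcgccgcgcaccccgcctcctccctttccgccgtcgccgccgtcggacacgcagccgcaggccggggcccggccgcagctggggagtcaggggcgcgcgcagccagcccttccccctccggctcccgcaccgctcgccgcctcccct
Rab11a: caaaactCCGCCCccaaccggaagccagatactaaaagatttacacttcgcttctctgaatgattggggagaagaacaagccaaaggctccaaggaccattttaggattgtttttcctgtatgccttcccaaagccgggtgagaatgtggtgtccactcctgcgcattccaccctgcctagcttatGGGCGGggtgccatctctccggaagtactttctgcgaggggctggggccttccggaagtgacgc
Rab11b: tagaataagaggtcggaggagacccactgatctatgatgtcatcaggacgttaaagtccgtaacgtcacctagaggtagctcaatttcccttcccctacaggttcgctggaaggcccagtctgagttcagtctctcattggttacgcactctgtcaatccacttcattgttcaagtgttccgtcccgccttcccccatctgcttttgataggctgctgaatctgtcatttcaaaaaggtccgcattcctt

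Counting overlapping matches, the Rab3b window held 4 GC boxes, those of Rab3a, Rab3d and Rab11a 2 each, that of Rab6b 1 and that of Rab11b 0. RefSeq gave a promoter for 47 of the 58 Rab genes, 59 windows in all, and 39 of these (66.1%) held a GC box on either strand, against 32.7% of all 32851 windows of the same length. The box was found among genes of either direction: it was present for 13 of 16 genes that rose, 8 of 11 that fell, 7 of 9 that were not called and 7 of 11 that were not tested. Other letters searched on both strands were rarer: the E-box CACGTG was in 5 Rab windows (8.47%, against 6.02% of all), and the cAMP response element TGACGTCA in 2 (3.39%, against 1.55%). A match in these windows is a description of letters only.

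The neuronal group had the greatest median difference, 1.60 over 4 tested genes. Of these 3 rose (75.0%, beside 22.4% of all tested genes), in a group assigned with earlier results known. Rab6b, the neuron-enriched form of the Golgi Rab6, had 9.97 and 9.66 FPKM in HDACi 4b libraries against 1.83 and 2.07 FPKM in con libraries. The ratio of the means was 5.04 (difference 1.88 ± 0.09, adjusted p = 0.000141). Rab3a, which keeps synaptic vesicles ready for release, had 25.5 and 20.7 FPKM in HDACi 4b libraries against 8.72 and 7.48 FPKM in con libraries (1.40 ± 0.125, adjusted p = 0.000773). Rab3b, its form in neuroendocrine cells and some neurons, had 3.48 and 3.04 FPKM in HDACi 4b libraries against 0.224 and 0.241 FPKM in con libraries (1.79 ± 0.12, adjusted p = 0.000305). In reads Rab3b gave 370 in HDACi 4b and 28 in con libraries. For all 3 genes the groups were far apart relative to their spread, and Rab3b was the lowest of them in con GCs.

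Rab33a, a Rab of axonal vesicles, was the most abundant neuronal member and was not called. It had 46.8 and 55.4 FPKM in HDACi 4b libraries against 44.5 and 49.3 FPKM in con libraries, so the groups overlapped (0.12 ± 0.10, adjusted p = 0.367). Rab15 and Rab39b stayed under 1 FPKM on average, and neither was called without the filter or in limma-voom. Rab15, a neuronal Rab of endosomes, gave 132 reads in HDACi 4b and 127 in con libraries. Rab39b, mutated in a human X-linked intellectual disability, had 0.816 and 0.830 FPKM in HDACi 4b libraries against 0.483 and 0.782 FPKM in con libraries.

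Neuron markers differed among themselves. Of 7 neuron markers 2 were tested: Tubb3, a neuronal tubulin, fell with 15.0 FPKM in each HDACi 4b library against 28.6 and 39.9 FPKM in con libraries (adjusted p = 0.00433), and Stmn2 was not called. Under 1 FPKM on average, the synaptic vesicle protein Syp had 1.56 and 1.24 FPKM in HDACi 4b libraries against 0.0234 and 0 FPKM in con libraries, and the fusion protein Snap25 had 1.15 and 1.35 FPKM in HDACi 4b libraries against 0.00896 and 0.0333 FPKM in con libraries. The 7 markers summed to 22.1 and 21.5 FPKM in HDACi 4b libraries against 31.7 and 43.1 FPKM in con libraries, and the neurofilament gene Nefl was at 0 in 3 libraries. Without Tubb3 the other 6 summed to 7.1 and 6.57 FPKM in HDACi 4b libraries against 3.08 and 3.16 FPKM in con libraries, with Rbfox3 at 1.06 and 1.02 FPKM in HDACi 4b libraries against 0.659 and 0.428 FPKM in con libraries and Syt1 at 0.141 and 0.158 FPKM in HDACi 4b libraries against 0 and 0.0407 FPKM in con libraries. Their part in the Rab3 and Rab6b values was not tested.

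**Figure D2:**
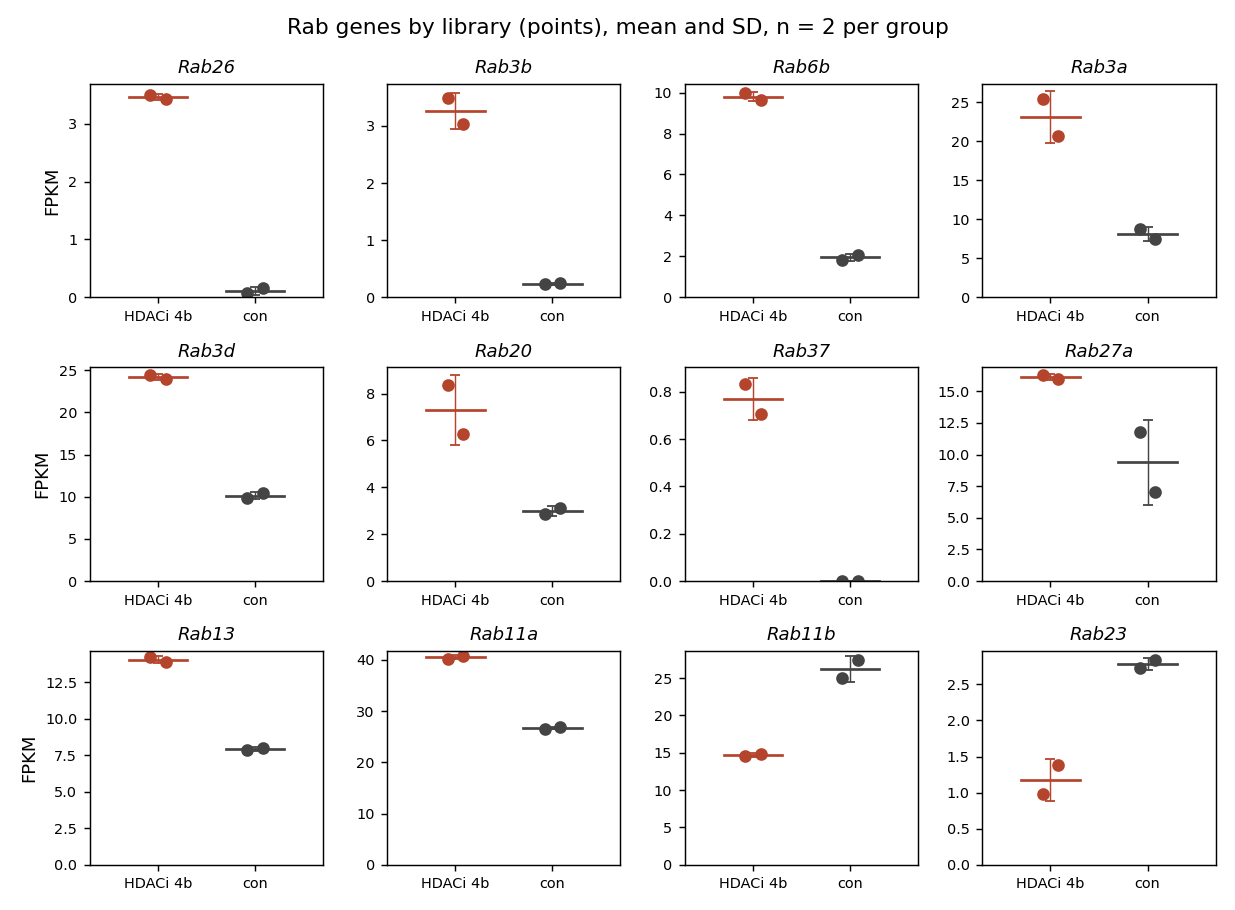
FPKM of 12 Rab genes in each library (points), with the mean (horizontal line) and SD (bar, n = 2 per group), HDACi 4b left and con right. The first 7 genes are at least 2-fold higher in HDACi 4b, and Rab27a has con libraries far from each other at 11.8 and 7.005 FPKM. Rab11b and Rab23 are lower in HDACi 4b, Rab23 by more than 2-fold (con over HDACi 4b mean ratio 2.36).

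Most secretory rises were in exocytosis and surface delivery. Of 7 tested exocytosis genes 6 rose (85.7%) and 0 fell, with a median difference of 0.75. Among all tested genes 22.4% rose and 38.1% fell. Rab26, which acts in the maturation of secretory granules of gland cells, had the greatest fitted difference among the 42 tested Rab genes. It had 3.50 and 3.43 FPKM in HDACi 4b libraries against 0.0640 and 0.159 FPKM in con libraries (2.01 ± 0.12, adjusted p = 0.000227). This came to 318 reads in HDACi 4b and 11 in con libraries, a ratio of 30.7 per read total (exact 95% interval 16.9 to 62.0, counting error only). Since 1 FPKM is added before the log, the fitted difference understates such genes: it was 4.94 in a limma-voom fit of reads and 4.11 with 0.1 FPKM added. Exons of Rab26 share 267 bases (9.4% of its length) with Traf7 on the same strand, and Traf7 was not called, with 24.9 and 23.9 FPKM in HDACi 4b libraries against 26.25 and 23.2 FPKM in con libraries.

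Rab37, the close relative of Rab26 found on mast cell granules, was read in both HDACi 4b libraries and in neither con library. It had 0.833 and 0.706 FPKM (72 and 60 reads) in HDACi 4b libraries against 0 reads in both con libraries. With 3 reads set in place of 0 for the con group, HDACi 4b was 46.6-fold higher, leaving out the counting error of the HDACi 4b reads. Rab37 lay under the level filter. It was called higher without that filter (0.82, adjusted p = 0.00758) and in limma-voom on reads (7.13, adjusted p = 2.67e-05). Rab3d, the Rab3 of exocrine and mast cell granules, had 24.5 and 23.9 FPKM in HDACi 4b libraries against 9.815 and 10.4 FPKM in con libraries (1.18 ± 0.07, adjusted p = 0.000220). The 2 libraries of each group lay close together for Rab3d, and the groups far apart.

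Rab27a, which docks secretory lysosomes and exosome-bearing endosomes at the surface, had 16.3 and 15.95 FPKM in HDACi 4b libraries against 11.8 and 7.005 FPKM in con libraries. The groups did not overlap, but the con libraries were far apart and the call was marginal (0.76 ± 0.24, adjusted p = 0.0474). It was lost without either HDACi 4b library (adjusted p = 0.155 and 0.138), without the filter and with a pseudocount of 0.1. Its paralog Rab27b had fewer reads in treated cells, 234 in HDACi 4b and 363 in con libraries (ratio 0.683, exact 95% interval 0.577 to 0.808). Rab27b had 0.612 and 0.751 FPKM in HDACi 4b libraries against 0.974 and 1.02 FPKM in con libraries. Under the level filter as well, it was called lower in limma-voom (-0.55, adjusted p = 0.0227) and not called in the fit without a filter (adjusted p = 0.153).

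Rab13, which brings junction proteins to the epithelial surface, had 14.2 and 13.85 FPKM in HDACi 4b libraries against 7.83 and 8.02 FPKM in con libraries (0.75 ± 0.07, adjusted p = 0.000669). Rab10, known for carrying the glucose transporter GLUT4 to the surface, had 72.5 and 74.8 FPKM in HDACi 4b libraries against 51.7 and 50.45 FPKM in con libraries (0.52 ± 0.06, adjusted p = 0.00156). Their relative Rab8a rose less, with 26.7 and 24.0 FPKM in HDACi 4b libraries against 18.7 and 21.1 FPKM in con libraries (0.33 ± 0.09, adjusted p = 0.0258), and this call was lost in 4 of 9 alternatives. Rab8b was not called (-0.14 ± 0.08). Summed over the 10 listed exocytosis genes, levels were 164.0 and 162.2 FPKM in HDACi 4b libraries against 106.1 and 103.8 FPKM in con libraries.

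The ER and Golgi genes were abundant, and none of those tested was called with a 2-fold change. Of 8 tested 1 rose and 4 fell, beside 22.4% and 38.1% of all tested genes. Their median difference was -0.15, the same as over all tested genes. Rab2a, of ER to Golgi traffic, was the most abundant Rab gene over the 4 libraries, with 150.5 and 136.5 FPKM in HDACi 4b libraries against 130.1 and 131.3 FPKM in con libraries, and was not called (0.13 ± 0.07, adjusted p = 0.178). Rab18, of lipid droplets and the ER, had 94.7 and 96.2 FPKM in HDACi 4b libraries against 90.9 and 88.7 FPKM in con libraries and was not called (0.09 ± 0.06, adjusted p = 0.263). Both were called higher once libraries were scaled to a common median ratio. Rab1a, which with Rab1b drives ER to Golgi traffic, rose, with 74.9 and 72.5 FPKM in HDACi 4b libraries against 58.0 and 56.9 FPKM in con libraries (0.35 ± 0.06, adjusted p = 0.00554).

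Rab1b fell, with 68.7 and 63.5 FPKM in HDACi 4b libraries against 80.4 and 80.6 FPKM in con libraries (-0.28 ± 0.07, adjusted p = 0.0169). Rab6a, the common Golgi Rab6, fell as well, with 33.2 and 33.4 FPKM in HDACi 4b libraries against 39.9 and 40.0 FPKM in con libraries (-0.26 ± 0.06, adjusted p = 0.0146). Rab34 (-0.31 ± 0.06, adjusted p = 0.00891) and Rab36 (-0.49 ± 0.10, adjusted p = 0.0109), related Rabs that position lysosomes near the Golgi, were the other falls. The falls of Rab1b, Rab6a and Rab34 were lost under median-ratio scaling and without either HDACi 4b library, that of Rab36 without HDACi 4b replicate 2 (adjusted p = 0.0717), and the rise of Rab1a without HDACi 4b replicate 1 (adjusted p = 0.0563). The summed level of the 12 ER and Golgi genes was 472.7 and 451.6 FPKM in HDACi 4b libraries against 462.3 and 459.2 FPKM in con libraries, and these overlapped. Rab33b, which binds the autophagy protein ATG16L1 at the Golgi, was not called, and its groups overlapped (-0.04 ± 0.11).

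Of the ER and Golgi genes under the level filter, 3 had fewer reads in HDACi 4b libraries. Rab30, a Golgi Rab, gave 111 reads in HDACi 4b and 198 in con libraries (0.390 and 0.325 FPKM in HDACi 4b libraries against 0.549 and 0.652 FPKM in con libraries). Rab43, of the Golgi as well, gave 27 reads in HDACi 4b and 62 in con libraries (0.145 and 0.159 FPKM in HDACi 4b libraries against 0.286 and 0.369 FPKM in con libraries). Rab2b gave 49 reads in HDACi 4b and 73 in con libraries and had 0.415 and 0.316 FPKM in HDACi 4b libraries against 0.584 and 0.449 FPKM in con libraries. In limma-voom Rab30 (-0.75, adjusted p = 0.0227) and Rab43 (-1.08, adjusted p = 0.0382) were called lower and Rab2b was not (adjusted p = 0.247), and none of the 3 was called in the fit without a filter. Rab43 shares 75.4% of its exon length with a predicted gene on its strand, and Rab2b shares 59.3% with one on the opposite strand.

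**Figure D3:**
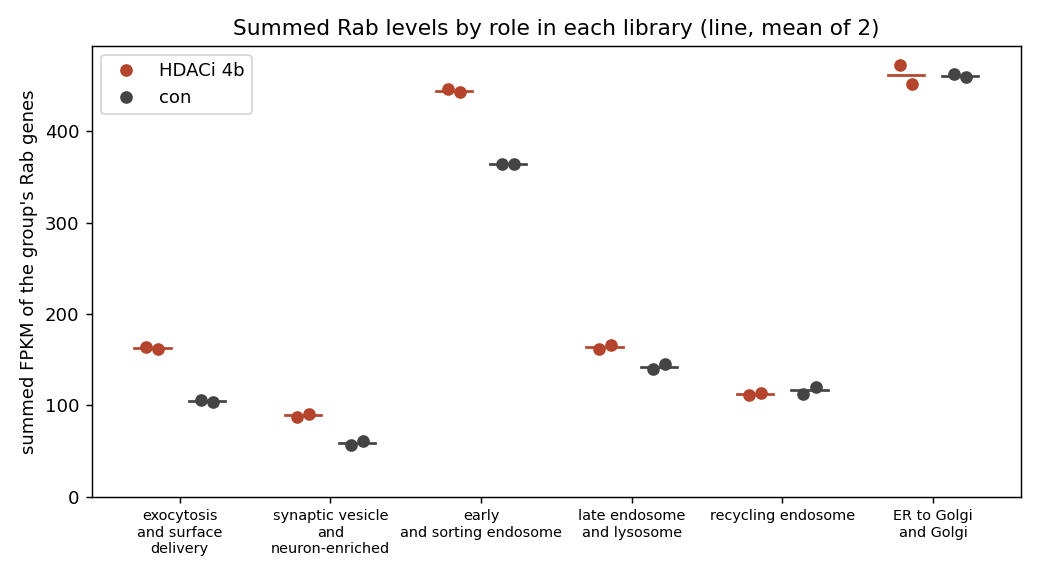
Summed FPKM of the Rab genes of 6 roles in each library (points, with the mean of 2 as a line), HDACi 4b left of con. Exocytosis genes sum to 164.0 and 162.2 FPKM in HDACi 4b and 106.1 and 103.8 FPKM in con, while the ER and Golgi genes overlap. Under median-ratio scaling the ratio for recycling genes turns above 1.

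The endosomal genes were mixed. Of 19 tested 7 rose (36.8%), 5 fell (26.3%) and 7 were not called, with a median difference of 0.06. Among all tested genes 22.4% rose and 38.1% fell. Early endosome genes held most of the rises: of 9 tested 4 rose (44.4%) and 2 fell (22.2%). Their summed level was 446.0 and 443.2 FPKM in HDACi 4b libraries against 364.3 and 364.4 FPKM in con libraries. Much of this sum was Rab31, which carries cargo between the trans-Golgi and endosomes and is known to bind the EGF receptor. Rab31 had 159.7 and 163.9 FPKM in HDACi 4b libraries against 108.3 and 101.7 FPKM in con libraries (0.62 ± 0.07, adjusted p = 0.00119). It ranked first of all Rab genes in HDACi 4b libraries at a mean of 161.8 ± 2.96 FPKM. In con libraries Rab2a led at 130.7 ± 0.857 FPKM, and Rab7, Rab31 and Rab5c followed at 106.2 ± 2.70, 105.0 ± 4.66 and 103.2 ± 1.75 FPKM (SD, n = 2), which do not differ beyond their spread.

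Rab20, a Rab of phagosomes and early endosomes known to be induced by hypoxia, had 8.37 and 6.26 FPKM in HDACi 4b libraries against 2.84 and 3.13 FPKM in con libraries (1.05 ± 0.14, adjusted p = 0.00254). It was the only endosomal gene to rise by 2-fold. The 3 Rab5 genes, which fuse early endosomes, moved apart. Rab5c had 138.3 and 133.0 FPKM in HDACi 4b libraries against 101.9 and 104.4 FPKM in con libraries (0.39 ± 0.06, adjusted p = 0.00438). Rab5a had 48.85 and 47.0 FPKM in HDACi 4b libraries against 59.1 and 58.4 FPKM in con libraries (-0.29 ± 0.06, adjusted p = 0.0109). Rab5b had 31.5 and 33.8 FPKM in HDACi 4b libraries against 35.0 and 36.8 FPKM in con libraries and was not called (-0.13 ± 0.07), with its sign turned under median-ratio scaling. The rise of Rab5c was lost without HDACi 4b replicate 1 (adjusted p = 0.0507), and the fall of Rab5a under median-ratio scaling and without either HDACi 4b library.

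Changes of the other early endosome members were small. Rab22a, which sorts cargo to recycling, fell (-0.32 ± 0.07, adjusted p = 0.0116), and Rab4a, of the fast recycling route, rose (0.19 ± 0.07, adjusted p = 0.0472), though 7 of 9 alternatives lost the call of Rab4a. The call of Rab22a was lost under median-ratio scaling (adjusted p = 0.0724) and without either HDACi 4b library (adjusted p = 0.0704 and 0.0654). Rab21, which takes up integrins, was not called, but was called higher under median-ratio scaling (adjusted p = 0.00997), and Rab14 was not called.

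Late endosome and lysosome genes showed 2 rises (33.3%) and 1 fall (16.7%) among 6 tested, beside 22.4% and 38.1% of all tested genes. Rab7, the main Rab of late endosomes, had 117.7 and 118.8 FPKM in HDACi 4b libraries against 104.3 and 108.1 FPKM in con libraries and was not called (0.15 ± 0.06, adjusted p = 0.0805), though it was called higher under median-ratio scaling (adjusted p = 0.0134). Rab9, which returns mannose 6-phosphate receptors to the Golgi, had 26.3 and 27.1 FPKM in HDACi 4b libraries against 18.5 and 17.35 FPKM in con libraries (0.55 ± 0.07, adjusted p = 0.00185). Rab29, known as an activator of the kinase LRRK2, had 9.54 and 11.5 FPKM in HDACi 4b libraries against 6.46 and 6.13 FPKM in con libraries (0.65 ± 0.10, adjusted p = 0.00402).

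Rab32, of lysosome-related organelles, had 1.37 and 1.18 FPKM in HDACi 4b libraries against 1.98 and 2.64 FPKM in con libraries (-0.53 ± 0.14, adjusted p = 0.0215), a call that 4 of 9 alternatives lost. Rab7b, which links late endosomes to the Golgi, had 4.27 and 4.61 FPKM in HDACi 4b libraries against 5.33 and 7.79 FPKM in con libraries and was not called (-0.46 ± 0.17, adjusted p = 0.0685), but was called lower without con replicate 1 (-0.69, adjusted p = 0.00695). Con replicate 2, the higher con library for both genes, also had the greatest sum of leukocyte markers, 112 FPKM. Of 7 leukocyte markers 4 were tested, of which Lyz2 and Tyrobp fell and Cd68 rose, and their part in these values was not tested. The pan-leukocyte marker Ptprc was between 0.0101 and 0.0835 FPKM in the 4 libraries. Rab38, a relative of Rab32, gave 13 reads in HDACi 4b and 26 in con libraries (0.156 and 0.358 FPKM in HDACi 4b libraries against 0.424 and 0.538 FPKM in con libraries). Rab24, of autophagy, was not called, and 62.4% of its exon length lies opposite Prelid1, whose reads cannot be told from its own if strand was not used.

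Among recycling endosome genes the Rab11 pair moved in opposite directions. Rab11a, the ubiquitous Rab of recycling endosomes, had 40.2 and 40.8 FPKM in HDACi 4b libraries against 26.5 and 26.8 FPKM in con libraries (0.58 ± 0.06, adjusted p = 0.00102). Rab11b, its form enriched in brain, heart and testis, had 14.5 and 14.9 FPKM in HDACi 4b libraries against 24.97 and 27.4 FPKM in con libraries (-0.79 ± 0.07, adjusted p = 0.000772). Con GCs held nearly equal levels of the pair, and treated GCs held far more Rab11a. Rab35, of a fast recycling route, fell (-0.31 ± 0.06, adjusted p = 0.00972), a call lost under median-ratio scaling and without either HDACi 4b library, and Rab12 was not called. Rab25, the epithelial relative, gave 7 reads in HDACi 4b and 2 in con libraries. Rab17, of epithelial transcytosis, gave 0 reads in HDACi 4b and 12 in con libraries (fit without a filter, adjusted p = 0.0454). With 3 reads set in place of 0 for the HDACi 4b group, con was 3.77-fold higher. This ratio leaves out the counting error of the 12 con reads and is not a bound.

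Of the 4 tested genes placed as other, 1 rose and 3 fell, beside 22.4% and 38.1% of all tested genes. Among these falls only that of Rab23 was called in every alternative. Rab23, a brake on Hedgehog signalling linked to the primary cilium, had 0.975 and 1.38 FPKM in HDACi 4b libraries against 2.72 and 2.84 FPKM in con libraries. It fell (-0.80 ± 0.13, adjusted p = 0.00435) by about as much as Rab11b on this scale, and past 2-fold with a pseudocount of 0.1 (-1.19) and in limma-voom (-1.26). Rab28, also of cilia, had 8.10 and 7.97 FPKM in HDACi 4b libraries against 9.63 and 9.87 FPKM in con libraries (-0.25 ± 0.07, adjusted p = 0.0247), and 5 of 9 alternatives lost this call. Rab40b and Rab40c carry a SOCS box, by which they serve as adaptors of a ubiquitin ligase. Rab40b had 2.40 and 2.65 FPKM in HDACi 4b libraries against 1.09 and 0.958 FPKM in con libraries (0.80 ± 0.11, adjusted p = 0.00255). Rab40c had 9.77 and 10.9 FPKM in HDACi 4b libraries against 13.0 and 12.1 FPKM in con libraries (-0.26 ± 0.08, adjusted p = 0.0415), and 7 of 9 alternatives lost this call. Rab42, to which no role was assigned, lay under the level filter and was not called without it (adjusted p = 0.0524), with 0.729 and 1.15 FPKM in HDACi 4b libraries against 0.320 and 0.298 FPKM in con libraries (23 reads in HDACi 4b and 8 in con libraries).

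The other Rab genes were close to the detection limit. Rab9b gave 16 reads in HDACi 4b and 8 in con libraries, Rab4b 9 in HDACi 4b and 10 in con, Rab19 7 in HDACi 4b and 8 in con, and Rab39 2 in HDACi 4b and 4 in con. Rab44 had at most 0.0763 FPKM in HDACi 4b libraries and 0.0296 FPKM in con libraries. No difference could be read from counts this low.

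Opposite changes of paralogs left several family sums nearly level in unscaled FPKM while the make-up of the family changed. A share within a library does not depend on how libraries are scaled, but the sums do. Median-ratio factors were 0.942 and 0.962 for HDACi 4b libraries and 1.065 and 1.053 for con libraries. Division by them raises HDACi 4b sums relative to con. Rab11a made up 73.2% of Rab11 and Rab25 transcript in each HDACi 4b library, against 51.5% and 49.4% in con libraries, and the summed level was 54.9 and 55.8 FPKM in HDACi 4b libraries against 51.5 and 54.3 FPKM in con libraries. Rab6b made up 23.1% and 22.4% of Rab6 in HDACi 4b libraries, against 4.38% and 4.92% in con libraries, for a sum of 43.15 and 43.07 FPKM in HDACi 4b libraries and 41.7 and 42.1 FPKM in con libraries. Rab1a made up 52.2% and 53.3% of Rab1 in HDACi 4b libraries and 41.9% and 41.4% in con libraries, so the greater of the pair changed from Rab1b in con to Rab1a in HDACi 4b. Rab5c made up 63.2% and 62.2% of Rab5 in HDACi 4b libraries and 52.0% and 52.3% in con libraries. The Rab5 sums lay apart, at 218.7 and 213.8 FPKM in HDACi 4b libraries against 196.0 and 199.6 FPKM in con libraries. In none of these 4 families did the shares of the groups overlap.

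The Rab3 family differed from these. Rab3 transcript summed to 53.4 and 47.7 FPKM in HDACi 4b libraries against 18.8 and 18.1 FPKM in con libraries, and the shares of Rab3a overlapped (47.7% and 43.5% in HDACi 4b, 46.5% and 41.3% in con). Rab3b made up 6.52% and 6.38% of it in HDACi 4b libraries and 1.20% and 1.33% in con libraries. In Rab40 the paralogs moved in opposite directions in unscaled FPKM, as in the Rab11, Rab6, Rab1 and Rab5 families, and the unscaled sums overlapped. In the limma fit under median-ratio scaling Rab11b kept its fall. The falls of Rab6a, Rab1b, Rab5a and Rab40c were lost there (adjusted p = 0.187, 0.195, 0.128 and 0.234). Rab40b made up 19.7% and 19.6% of Rab40 in HDACi 4b libraries and 7.72% and 7.35% in con libraries.

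The paralog pairs compared shared identical bases only in short runs. Confusion of their reads where bases differ was not tested. Coding sequences of the pairs Rab11a and Rab11b and Rab6a and Rab6b were 75.2% and 78.4% identical, and the longest run of identical bases shared by transcripts of either pair was 14 bases. For Rab3b and Rab3d it was 33 bases (74.3% identity), for Rab5a and Rab5b 35 bases (74.3%) and for Rab1a and Rab1b 38 bases (76.1%).

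**Figure D4:**
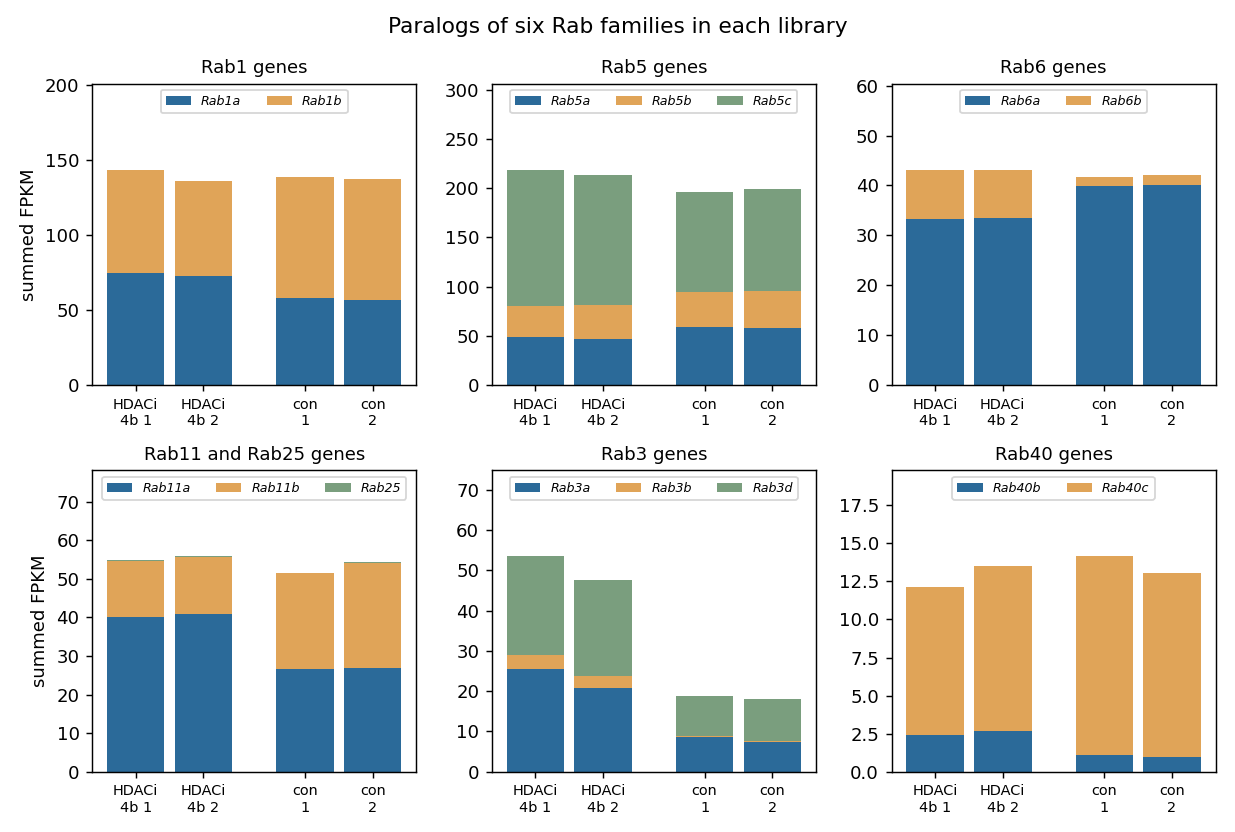
Stacked FPKM of the paralogs of 6 Rab families in each library (bars start at 0), HDACi 4b left and con right. The Rab6 and Rab11 bars are of nearly the same height in all libraries while Rab6b and Rab11a take more of them in HDACi 4b, and the Rab3 bars are 53.4 and 47.7 FPKM in HDACi 4b against 18.8 and 18.1 FPKM in con.

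The proteins that load, switch and read Rabs were taken as a list of 148 genes, 146 with a row, of which 128 were tested: 24 rose (18.8%, beside 22.4% of all tested genes), 43 fell (33.6%, beside 38.1%) and no call was made for 61. Calls in either direction thus took in 52.3%, beside 60.5% of all tested genes. Their median difference was -0.15, the same as over all tested genes. Past 2-fold 2 rose (1.56%) and 7 fell, where 7.54% of all tested genes rose and 6.7% fell by as much. Median-ratio scaling gave 32 rises and 31 falls.

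Genes of the lipid tail and of membrane cycling were the only class with more rises (5) than falls (1) among 11 tested. In this class 45.5% rose and 9.09% fell, beside 22.4% and 38.1% of all tested genes. Rabggtb, the catalytic subunit of the enzyme that adds the tail, had 42.5 and 38.6 FPKM in HDACi 4b libraries against 28.1 FPKM in each con library (0.51 ± 0.07, adjusted p = 0.00282). Rabac1, which frees Rabs from their carrier GDI, had 166.2 and 156.5 FPKM in HDACi 4b libraries against 91.4 and 108.8 FPKM in con libraries (0.69 ± 0.10, adjusted p = 0.00314). Of 45 tested exchange factors 8 rose (17.8%) and 11 fell (24.4%), both below the shares of all tested genes. Sh3bp5, an exchange factor of Rab11, had 19.9 and 20.2 FPKM in HDACi 4b libraries against 8.36 and 8.37 FPKM in con libraries (1.17 ± 0.06, adjusted p = 0.000198). Rin1, an exchange factor of Rab5, had 3.82 and 3.81 FPKM in HDACi 4b libraries against 8.835 and 8.79 FPKM in con libraries (-1.03 ± 0.07, adjusted p = 0.000368). Dennd2a, which acts on Rab9, had 2.39 and 2.52 FPKM in HDACi 4b libraries against 8.36 and 7.88 FPKM in con libraries (-1.40 ± 0.08, adjusted p = 0.000234).

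Of 29 tested GTPase-activating proteins 5 rose (17.2%) and 12 fell (41.4%), near the 22.4% and 38.1% of all tested genes. Tbc1d4, which holds Rab10 inactive until insulin acts, had 3.905 and 4.59 FPKM in HDACi 4b libraries against 11.1 and 13.5 FPKM in con libraries (-1.34 ± 0.12, adjusted p = 0.000731). Tbc1d9 (-1.13 ± 0.10) and Tbc1d13, which acts on Rab35 (-0.72 ± 0.07), fell as well. Of 38 tested effectors 6 rose (15.8%) and 17 fell (44.7%). Bicd1, by which Rab6 vesicles bind dynein, had 1.25 and 1.255 FPKM in HDACi 4b libraries against 5.73 and 4.68 FPKM in con libraries (-1.46 ± 0.12, adjusted p = 0.000507). Ehbp1l1, bound by Rab8 and Rab10, had 8.74 and 7.16 FPKM in HDACi 4b libraries against 2.125 and 2.40 FPKM in con libraries (1.45 ± 0.12, adjusted p = 0.000510). Rab11fip2, which ties Rab11 vesicles to a myosin motor, had 2.03 and 2.485 FPKM in HDACi 4b libraries against 5.92 and 6.36 FPKM in con libraries (-1.14 ± 0.11, adjusted p = 0.000753).

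Of 5 tested kinases and phosphatases that act on Rabs 0 rose and 2 fell (40.0%, beside 38.1% of all tested genes). Lrrk1, which phosphorylates Rab7, had 1.60 and 1.66 FPKM in HDACi 4b libraries against 9.11 and 9.35 FPKM in con libraries (-1.96 ± 0.08, adjusted p = 0.000114), the greatest fitted difference among the 128 tested genes of the list. Under the level filter Myo5b, a motor bound by Rab11 and named here after its values were seen, had 0.663 and 0.655 FPKM in HDACi 4b libraries against 0.0872 and 0.0464 FPKM in con libraries (limma-voom 3.32, adjusted p = 0.000156). Stk3, a kinase of the Hippo pathway, had 9.05 and 10.6 FPKM in HDACi 4b libraries against 16.0 and 17.7 FPKM in con libraries (-0.72 ± 0.10, adjusted p = 0.00260).

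Partners of Rab3 and Rab27, named after their values were seen, went both ways. Madd, the exchange factor of Rab3, had 3.99 and 3.39 FPKM in HDACi 4b libraries against 1.62 and 1.265 FPKM in con libraries (0.94 ± 0.13, adjusted p = 0.00234). Unc13d, which primes granules with Rab27a, had 4.94 and 4.89 FPKM in HDACi 4b libraries against 2.56 and 1.84 FPKM in con libraries (0.90 ± 0.13, adjusted p = 0.00308). Sytl4 (granuphilin), a Rab27a effector on insulin granules, had 7.21 and 6.13 FPKM in HDACi 4b libraries against 16.0 and 12.5 FPKM in con libraries (-0.99 ± 0.14, adjusted p = 0.00318). Rims2, a Rab3 effector at release sites, had 1.515 and 1.90 FPKM in HDACi 4b libraries against 3.002 and 3.48 FPKM in con libraries (-0.65 ± 0.12, adjusted p = 0.00723), a call lost without HDACi 4b replicate 1.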

How the data were processed

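The authors deposited 1 table of FPKM with 4 library columns and no stated unit. The unit was settled from the values: for 21609 of the 23895 genes matched to a GENCODE M21 symbol (90.4%), value times exon length and library total gave whole reads within 0.001 reads, as for 49 of 58 Rab genes. The submitters' notes name Bowtie 0.12.2 and build mm8. Not given in the sources used here were the counter, its annotation and its use of strand. Titles and series design were followed for the groups, although the attached protocols speak of tamoxifen and frozen ovaries.

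The 12054 genes that averaged 1 FPKM or more entered a limma fit (limma 3.58.1, R 4.3.3) of log2(FPKM + 1), with trend and robust empirical Bayes, a two-sided test and Benjamini-Hochberg adjustment over all of them. This scale understates the change of low genes. The fit was tested on simulated data. Read ratios carry exact conditional binomial intervals (scipy 1.17.1), which cover counting error only. Named were Rab genes changed 2-fold, the 3 most abundant of each role, the Rab3, Rab5, Rab7, Rab11 and Rab27 families, untested genes of at least 0.3 FPKM whose groups did not overlap, and the 3 regulators of each class with the smallest p and a difference of at least 0.5; other Rab genes were named with fewer values. Roles, lists and members were chosen with earlier results of these data known. Alternatives were a pseudocount of 0.1, no filter, median-ratio scaling, the replicate number as a block, each library left out, and a limma-voom fit of the recovered reads (10 or more in 2 libraries). Promoters came from RefSeq on GRCm38.p6, which is not the build of the notes, and transcripts from GENCODE M21. Protein sequences were not used here. Figures were drawn with matplotlib 3.10.9.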

Additional observations from a re-analysis of the deposited data

How the results depend on the processing

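Of 30 called Rab genes 15 were called in every alternative run on them, among them all 6 changed 2-fold, and 15 lost the call in at least 1, while 5 of the 12 not called gained one. The number of Rab genes that fell was 12, and it was 4 under median-ratio scaling and between 2 and 11 with a library left out; the number that rose was 18, and ranged from 13 to 22 over all alternatives. Falls of 2-fold were 0, against 1 with a pseudocount of 0.1 and 2 in limma-voom. Rises of regulators and effectors were 24, and 14 to 22 with a library left out. Their 2-fold rises were 2, against 5 with the smaller pseudocount, 5 under median-ratio scaling, 7 in limma-voom and 2 to 4 with a library left out. Their 2-fold falls were 7, and 12 in limma-voom. With the replicate number as a block 17 Rab genes rose and 12 fell: Rab4a and Rab40c lost their calls and Rab7b was called lower (adjusted p = 0.0262). Across the 12054 tested genes the difference between replicates 1 and 2 in con correlated at 0.0877 with that in HDACi 4b. This single value cannot show whether same-numbered libraries were paired, and no pairing is known. With 2 libraries a group and no record of separate cultures, small changes and genes of few reads are not resolved.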
